A study of Mus musculus with 59 samples.

Results

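Meiotic chromosome axis and cohesin genes were examined in single mouse epiblasts that lacked G9a or EZH2. The genes were 9, taken by symbol: *Sycp1*, *Sycp2*, *Sycp3*, *Stag3*, *Smc1b*, *Rec8*, *Hormad1*, *Stra8* and *Dmc1*, out of 22134 genes with counts in at least 1 epiblast. For each gene the transcript with the highest mean raw count was used, and an epiblast in which it was not listed was given a count of 0. RNA sequencing (RNA-seq) had been performed on 14 single epiblasts dissected at E6.25 (days of embryonic development) from embryos of mixed background. In the *Ehmt2* cross, 4 knockout epiblasts (G9a-/-) were compared with 4 controls, labelled G9a+/+ and described in the study as wild-type or heterozygous. In the *Ezh2* cross, 3 knockouts (Ezh-/-) were compared with 3 controls, labelled Ezh+/+ and likewise described as wild-type or heterozygous. Each library is 1 embryo, and the labels name no treatment or age other than E6.25. The *Ehmt2* line carried a published conditional allele and had been crossed to the *ΔPE-Pou5f1-EGFP* (GGOF) reporter, a transgene that is active in the inner cell mass and leaves some fluorescence in the epiblast. The *Ezh2* line carried an allele described earlier. The methods of the study set every knockout against all controls, whereas column names in its list of changed genes pair *Ehmt2* knockout 4 with control 4. Here replicates 1 to 3 and replicate 4 of that cross were treated as separate sets, a choice of the model and not a statement of the methods. The epiblasts came from 4 litters in the *Ehmt2* and 3 litters in the *Ezh2* cross, and which epiblasts shared a litter is not given. The histone and methylation libraries of the series were not analysed here.

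G9a, encoded by *Ehmt2*, places H3K9me2, and EZH2 is the catalytic subunit of Polycomb repressive complex 2, which places H3K27me3. In meiotic prophase, sister chromatids are folded as loops along a proteinaceous axis, which is built on cohesin complexes with germ cell subunits and later becomes the lateral element of the synaptonemal complex. Outside the germ line most of these genes are silent or low, and several of them are known targets of E2F6 and the Polycomb-type repressor complex PRC1.6, which bind E2F sites and E-boxes in their promoters.

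The totals per epiblast were between 32431296 and 68464895 counts in the *Ehmt2* cross and between 30161171 and 37500157 in the *Ezh2* cross, summed over all transcripts. Counts were scaled within each cross and are given as CPM, that is, relative to the scaled total of the library, so that 1 count was worth between 0.0161 and 0.0321 CPM, and levels are compared only within a cross. As a check of the labels, *Ehmt2* was at 10.2 to 32.7 CPM in its controls and 3.21 to 9.44 CPM in its knockouts, and *Ezh2* was at 53.3 to 112 CPM in its controls and 11.8 to 16.5 CPM in its knockouts. Library 4 of each *Ehmt2* genotype stood apart from the others: 6 of 12 visceral endoderm markers were at 0 in both. Epiblast markers (*Pou5f1*, *Sox2*, *Nanog*, *Otx2*, *Fgf5*, *Dnmt3b*, *Utf1*, *Pou3f1*) were detected in all 14 epiblasts. Their summed level was 2379 to 2726 CPM in *Ehmt2* controls and 1416 to 2122 CPM in knockouts, which did not overlap. Of single genes, 2.63% had every knockout below every control there. *Dnmt3b* made up most of the sum, at 1563 to 2027 CPM in controls and 964 to 1391 CPM in knockouts. The mean log2(CPM + 0.5) of the 8 markers overlapped, at 6.72 to 7.08 in controls and 6.27 to 6.84 in knockouts. In the *Ezh2* cross the sums were 2379 to 2610 CPM in controls and 1922 to 2532 CPM in knockouts. With edgeR 0 of the 8 were called in either cross, as with DESeq2. At an unadjusted p under 0.05, 4 were lower in the *Ehmt2* cross, where 6.86% of all genes were. They were *Fgf5* −0.70, *Dnmt3b* −0.50, *Pou5f1* −0.47 and *Otx2* −0.44 on the log2 scale, named after their values were seen. In the *Ezh2* cross 1 (*Otx2*) was lower, where 3.39% of all genes were. The part of these lower marker levels in the results below was not tested. In such libraries, fewer cells that express a gene and less RNA per cell cannot be told apart.

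Of the 9 genes, *Sycp2* alone was called changed in the *Ehmt2* knockouts, and it was higher in each of them. That call was lost in a fit that also took in how high the markers of extraembryonic ectoderm were (log2 fold change 2.65, adjusted p = 0.15, edgeR). In replicates 1 to 3 that marker level went with genotype, so the fit cannot tell them apart there. A call required a log2 fold change beyond 1.4 together with an adjusted p under 0.05 (Benjamini-Hochberg, over all transcripts tested) from edgeR's quasi-likelihood test. *Stra8* did not pass the filter on low counts in either cross, so 8 genes were tested. In the *Ehmt2* knockouts 1 of the 8 was called higher, where 0.786% of 13749 genes were, and 0 were called lower, where 0.0655% were. Over all transcripts, isoforms included, these shares were 0.441% and 0.0581%. DESeq2 called the same numbers of the 8, 1 and 0, with 1.66% of all genes higher and 0.458% lower. At an unadjusted p under 0.05, 3 were higher (*Sycp1*, *Sycp2*, *Smc1b*) and 1 was lower (*Dmc1*), against 8.58% and 6.86% of all genes. In the *Ezh2* knockouts edgeR and DESeq2 called 0 of the 8 in either direction, where edgeR called 0% of 14010 genes higher and 0.00714% lower (0% and 0.0118% of all transcripts) and DESeq2 called 0.485% higher and 0.0214% lower. At an unadjusted p under 0.05, 1 (*Sycp2*) was higher and 0 were lower, against 5.5% and 3.39% of all genes. All 8 had a positive log2 fold change there, against 54% of all genes, and 5 of 8 did in the *Ehmt2* knockouts, against 51.1%. The median log2 fold change of the 8 was 0.41 in the *Ehmt2* cross and 0.63 in the *Ezh2* cross, beside 0.01 and 0.03 over all genes. The 8 values of a cross come from the same epiblasts and are not independent.

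**Figure D1:**
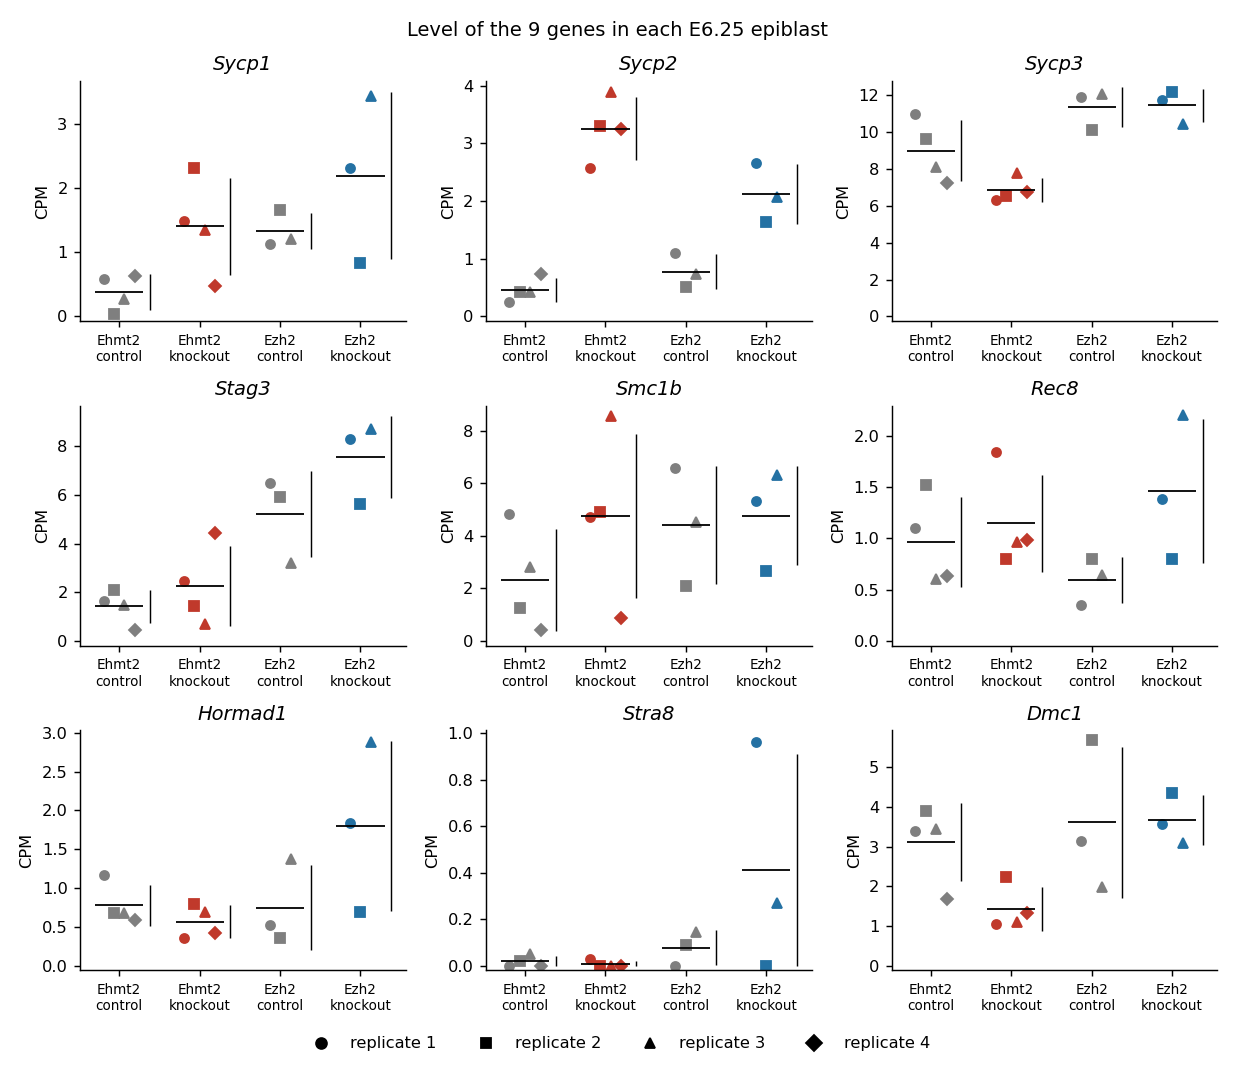
Level of each of the 9 genes in every epiblast, in CPM on a linear axis that starts near 0. Points are single epiblasts with the symbol of their replicate number, horizontal lines are group means and vertical lines are 1 SD, cut at 0. The *Sycp2* points of both knockouts lie above those of their controls, and *Stra8* is near 0 in all but 2 epiblasts.

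Before any comparison of genotypes, the genes differed widely in level. Per kilobase of transcript, the median of the *Ehmt2* controls was 7.59 CPM for *Sycp3*, 1.54 for *Dmc1*, 0.506 for *Smc1b*, 0.449 for *Hormad1*, 0.396 for *Rec8*, 0.368 for *Stag3*, 0.123 for *Sycp1*, 0.0736 for *Sycp2* and 0.00585 for *Stra8*. *Sycp3* lay apart from *Dmc1* in every control (6.21 to 9.38 against 0.754 to 1.76 CPM per kilobase), and *Sycp2* lay above *Stra8* (0.0427 to 0.129 against 0 to 0.029). Every other pair of neighbours in this order overlapped. The *Ezh2* controls had *Sycp3* at the top again, with a median of 10.2 CPM per kilobase, and *Sycp2* (0.128) and *Stra8* (0.049) at the bottom. The cohesin genes that do the corresponding work in mitotic cells were far above *Smc1b*, *Rec8* and *Stag3*. Medians of the *Ehmt2* controls on the same scale were 23.9 for *Smc1a*, the counterpart of *Smc1b*, and 37.5 for *Rad21*, the counterpart of *Rec8*. They were 18.7 for *Stag1* and 10.4 for *Stag2*, the counterparts of *Stag3*.

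The proteins of the axis and the synaptonemal complex are taken first. *Sycp2* (ENSMUST00000081134, chromosome 2 from 178345293 to 178407685 in GRCm38, minus strand, 44 exons) encodes a core protein of the lateral element. The *Ehmt2* controls had 0.244, 0.422, 0.419 and 0.738 CPM, in the order of their numbers, and the knockouts 2.57, 3.30, 3.90 and 3.25 CPM. Each knockout was above every control, which 3.59% of all genes showed, and even the highest control did not reach 1 CPM. These values rest on 10 to 41 counts per control and 92 to 202 per knockout. The edgeR estimate was 2.89 on the log2 scale with a standard error of 0.40 and an adjusted p of 0.0077. Taken one by one, the knockouts were 2.82, 3.18, 3.42 and 2.14 above their controls on the log2 scale. With both replicates 4 left out, the estimate was 3.16 and the adjusted p 0.0058. By a rule that asked for a change beyond 1.4 in every knockout, *Sycp2* was again called, as were 0.887% of all genes, and 0 of the 8 were called lower (0.225%). That rule called 0 of the 8 in the *Ezh2* cross, where it called 0.857% of all genes higher and 0.136% lower. In the exact permutation test, two-sided, p was 0.0286, the smallest that 4 against 4 allow, and 0.3 after Benjamini-Hochberg adjustment over 18 tests, 9 genes in 2 crosses.

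For *Sycp2* the *Ezh2* controls had 1.10, 0.501 and 0.731 CPM and their knockouts 2.67, 1.63 and 2.06 CPM. The groups did not overlap, which held in the same direction for 7.71% of all genes. The edgeR estimate was 1.44 on the log2 scale with a standard error of 0.48, and the test did not call it, with an adjusted p of 0.58 from edgeR. The exact permutation test gave p = 0.1, the smallest that 3 against 3 allow. *Sycp2* was the only one of the 9 genes whose knockouts lay above all controls in both crosses. The share of all genes that did so in both was not computed. The estimate was 1.45 larger on the log2 scale in the *Ehmt2* than in the *Ezh2* cross, with a standard error of 0.58 and an adjusted p of 0.52 from edgeR for the difference, so that no difference between the crosses was shown. Of the 8 genes, edgeR and DESeq2 called 0 different between the crosses, where edgeR called 0.0592% of 15213 genes further up in the *Ehmt2* cross and 0.0526% further up in the *Ezh2* cross. For DESeq2 these shares were 0.329% and 0.44%, and *Sycp2* was the 1 with an unadjusted p under 0.05.

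The higher *Sycp2* counts of the knockouts were found both within and outside a shorter isoform. That isoform, ENSMUST00000132611 (178346119 to 178374930), covers 45.8% of the length of the main transcript, in its 3′ part. It stops short of the 3′ end of the main transcript at 178345293, so the rest includes that end. The isoform took 35 to 134 counts in *Ehmt2* knockouts against 3 to 27 in controls. The counts left for the rest of the transcript were 38 to 68 in knockouts and 4 to 14 in controls. The rest of the transcript in the *Ezh2* cross had 35 to 53 counts in knockouts and 8 to 19 in controls. Neither part overlapped between genotypes in either cross. The plot of raw counts by isoform below shows this split beside that of *Stag3* and *Rec8*.

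*Sycp1* (ENSMUST00000029448, chromosome 3 from 102818499 to 102936100, minus strand) encodes the transverse filament that joins the lateral elements. Its level was 0.586, 0.0422, 0.262 and 0.63 CPM in *Ehmt2* controls 1 to 4 and 1.48, 2.30, 1.35 and 0.467 CPM in the knockouts. Knockouts 1 to 3 were above every control, whereas knockout 4 was below its own control. The log2 fold change of 1.84 had a standard error of 0.81 and was not called (adjusted p = 0.40, edgeR). It was 2.53 with both replicates 4 left out and 1.29 without control 2. Knockouts 1 to 3 were also the epiblasts with high extraembryonic ectoderm markers, described below, and with the marker level as a covariate the estimate was 1.21. *Ezh2* controls had 1.13, 1.65 and 1.20 CPM and knockouts 2.31, 0.83 and 3.42 CPM, with knockout 2 below all controls, and the log2 fold change was 0.72 ± 0.52 (standard error).

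*Sycp3* (ENSMUST00000125612, chromosome 10 from 88459664 to 88473236, plus strand), which encodes the other main lateral element protein, was not called in either cross. It had 11.0, 9.65, 8.09 and 7.25 CPM in *Ehmt2* controls and 6.34, 6.51, 7.77 and 6.78 CPM in knockouts. Each knockout was below the controls of its own set, but knockout 3 was above control 4. The log2 fold change was −0.38 with a standard error of 0.20 and an adjusted p of 0.50 (edgeR). All 6 epiblasts of the *Ezh2* cross lay between 10.1 and 12.2 CPM and the log2 fold change was 0.01 ± 0.19 (standard error). Of the 1169 bases of this transcript, 660 overlap exons of *Chpt1* on the opposite strand, and whether the counting used the strand is not given in the sources used here. The *Chpt1* transcript that spans them had at most 180 counts in any epiblast, fewer than the 227 to 457 of *Sycp3*.

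*Hormad1* (ENSMUST00000090797, chromosome 3 from 95559677 to 95587671, plus strand) encodes a HORMA domain protein of unsynapsed axes. It was at 1.17, 0.676, 0.681 and 0.594 CPM in *Ehmt2* controls and at 0.363, 0.796, 0.688 and 0.419 CPM in knockouts, so that the groups overlapped. The log2 fold change was −0.46 ± 0.53 (standard error). *Ezh2* controls had 0.521, 0.354 and 1.37 CPM and knockouts 1.83, 0.692 and 2.88 CPM. Knockouts 1 and 3 were above all controls and knockout 2 lay within them, with a log2 fold change of 1.26, a standard error of 0.67 and an adjusted p of 0.78 (edgeR). Without control 3 it was 2.03 and without knockout 3 it was 0.74.

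**Figure D2:**
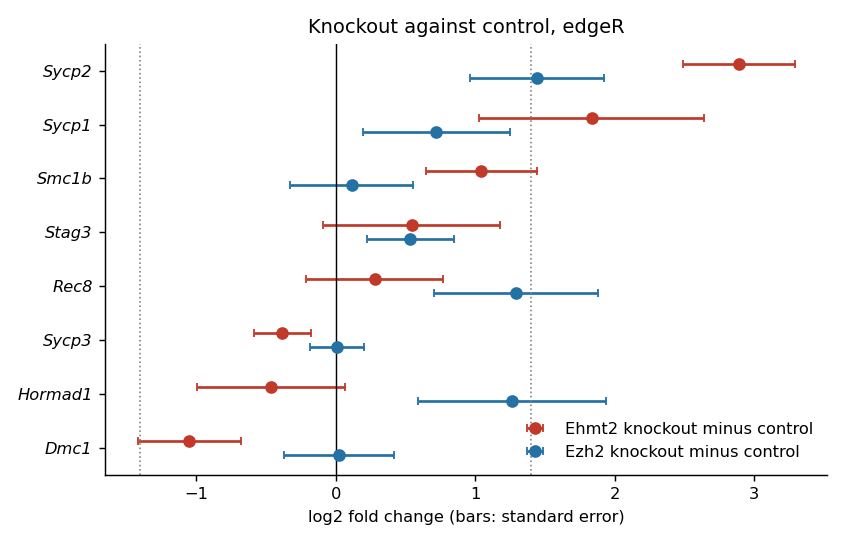
Log2 fold change, knockout minus control, of the 8 genes tested in the *Ehmt2* cross (red) and the *Ezh2* cross (blue), with bars of 1 standard error from edgeR. Dotted lines mark 1.4 in either direction. *Sycp2* at 2.89 is the one value that was called, and *Dmc1*, *Hormad1* and *Sycp3* are below 0 in the *Ehmt2* cross.

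The cohesin subunits showed no call. *Smc1b* (ENSMUST00000023068, chromosome 15 from 85064689 to 85131964, minus strand) encodes the meiotic SMC1 subunit. It had 4.81, 1.27, 2.83 and 0.414 CPM in *Ehmt2* controls 1 to 4 and 4.72, 4.89, 8.54 and 0.886 CPM in the knockouts. The groups overlapped widely, knockout 3 was highest, and both replicates 4 were lowest in their group. Against the controls of their set all 4 knockouts were higher, by 0.67, 0.72, 1.53 and 1.09 on the log2 scale. The joint log2 fold change of 1.04 had a standard error of 0.40, an unadjusted p of 0.0224 and an adjusted p of 0.32 (edgeR). *Ezh2* controls had 6.57, 2.09 and 4.53 CPM and the knockouts 5.33, 2.66 and 6.30 CPM, with a log2 fold change of 0.12 ± 0.44 (standard error). The spread of *Smc1b* within each group of controls was more than 3-fold.

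*Stag3* (ENSMUST00000048028, chromosome 5 from 138280526 to 138312393, plus strand, 34 exons) encodes the meiotic STAG subunit. It was at 1.64, 2.11, 1.47 and 0.468 CPM in *Ehmt2* controls and at 2.46, 1.42, 0.688 and 4.46 CPM in knockouts. Knockout 4 was the highest of the cross although its own control was the lowest, and knockout 3 was below controls 1 to 3. The knockouts differed in sign, from −1.34 in knockout 3 to 3.24 in knockout 4 on the log2 scale, and the joint value was 0.54 ± 0.63 (standard error), or −0.19 with both replicates 4 left out. The *Ezh2* cross had 6.51, 5.92 and 3.21 CPM in controls and 8.32, 5.64 and 8.72 CPM in knockouts, with a log2 fold change of 0.54 ± 0.31 (standard error) and an adjusted p of 0.80 (edgeR).

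The high *Stag3* value of *Ehmt2* knockout 4 went with a high count in the last exons of the gene. A short isoform of 3 exons, ENSMUST00000159189 (138309201 to 138312386), shares 494 bases, or 11.7%, with the main transcript. It took 245 counts in knockout 4, where the main transcript had 277, and between 1 and 46 counts in the other 13 epiblasts. The isoform is 591 bases long, so some of its counts can lie outside the main transcript, and subtraction can take off too many. An isoform of the first exons, ENSMUST00000160729, had 0 counts in that epiblast, as it had in controls 3 and 4, and 13 to 67 counts in each epiblast of the *Ezh2* cross. With the counts of the last exons taken off, *Ehmt2* controls kept 23 to 82 and knockouts 20 to 59 counts, and the log2 fold change became −0.32 with an adjusted p of 0.85 (edgeR). These isoforms and this alternative were chosen after the values were seen.

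*Rec8* (ENSMUST00000002395, chromosome 14 from 55618037 to 55625395, plus strand, 20 exons) encodes the kleisin of meiotic cohesin. It had 1.10, 1.52, 0.602 and 0.63 CPM in *Ehmt2* controls and 1.84, 0.796, 0.968 and 0.982 CPM in knockouts, which overlapped, with a log2 fold change of 0.28 ± 0.49 (standard error). *Ezh2* controls had 0.347, 0.796 and 0.643 CPM and the knockouts 1.38, 0.802 and 2.20 CPM. All 3 knockouts were above the controls, as held for 7.71% of all genes, but knockout 2 exceeded control 2 by only 29 counts against 27. The log2 fold change was 1.29 with a standard error of 0.59 and an adjusted p of 0.72 (edgeR).

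A short isoform at the 3′ end, ENSMUST00000155193 (55624919 to 55625395), had counts near those of the main *Rec8* transcript in some epiblasts. It shares 310 bases, or 14.2%, with the main transcript, and the gene lies beside the end of *Ipo4*, on the opposite strand, which had 1180 to 3790 counts in the *Ehmt2* cross. In *Ehmt2* knockout 4 the isoform had 61 counts and the main transcript also 61, so that none was left after subtraction. In knockout 1 it had 52 beside 66. The isoform is 381 bases long, so some of its counts can lie outside the main transcript, and subtraction can take off too many. Without these counts the *Ehmt2* log2 fold change was −1.06 (adjusted p = 0.70, edgeR) and the *Ezh2* value stayed at 1.29. After subtraction *Rec8* had 3 to 19 counts in *Ezh2* controls and 18 to 42 in knockouts, which overlapped. Whether reads of *Ipo4* took part was not tested.

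**Figure D3:**
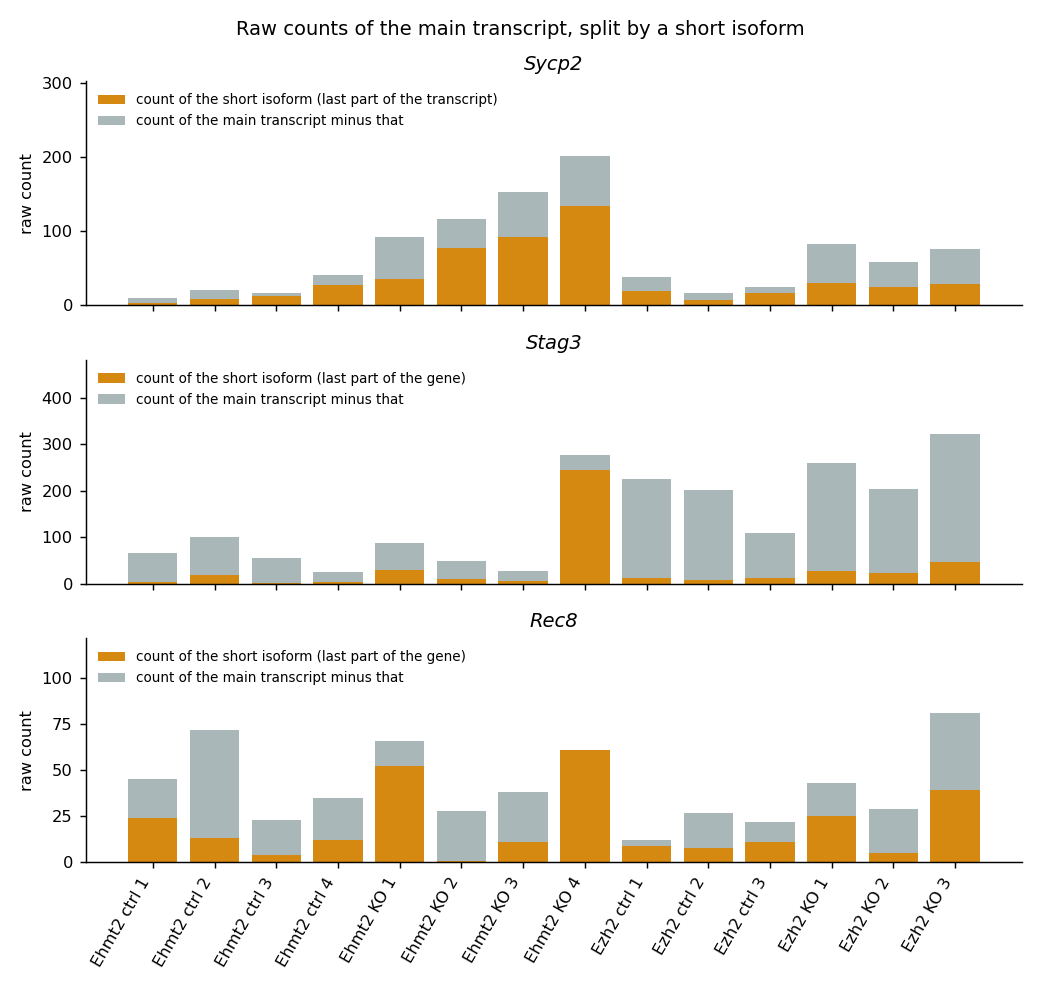
Raw counts per epiblast of the main transcript of *Sycp2*, *Stag3* and *Rec8*, split into the count of a short isoform (orange) and the remainder (grey). The isoform lies in the last exons of *Stag3* and *Rec8*, and in a 3′ part of *Sycp2* that stops short of its end. In *Sycp2* both parts are larger in the knockouts, whereas in *Ehmt2* knockout 4 nearly all of *Stag3* (245 of 277) and all of *Rec8* (61 of 61) is orange.

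*Dmc1* (ENSMUST00000023065, chromosome 15 from 79561497 to 79605108, minus strand) encodes the meiotic strand-exchange recombinase. The *Ehmt2* controls were at 3.40, 3.91, 3.46 and 1.67 CPM and the knockouts at 1.06, 2.25, 1.10 and 1.34 CPM. Every knockout was below the controls of its set, and knockout 2 alone was above control 4. Its estimate of −1.05 on the log2 scale had a standard error of 0.37, an unadjusted p of 0.0145 and an adjusted p of 0.28, so the test did not call it. With the extraembryonic ectoderm marker level as a covariate it was −0.23. Values of the *Ezh2* cross were 3.15, 5.69 and 1.99 CPM in controls and 3.57, 4.34 and 3.10 CPM in knockouts, within the range of the controls, and the log2 fold change was 0.02 ± 0.39 (standard error).

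*Stra8* (ENSMUST00000031876, chromosome 6 from 34920163 to 34939344, plus strand) encodes a regulator that germ cells need to enter meiosis. Its counts were 0, 1, 2 and 0 in *Ehmt2* controls and 1, 0, 0 and 0 in knockouts, at or under 3 counts in each library, so that no fold is given. At these depths 3 counts, the limit that a count of 0 allows, correspond to 0.0483 to 0.0853 CPM in the *Ehmt2* cross, by counting error alone. The *Ezh2* controls had 0, 3 and 5 counts and the knockouts 30, 0 and 10. Knockout 1 held 30 of the 40 knockout counts, and knockout 2 had none (exact permutation test on CPM, two-sided, p = 0.4). *Ezh2* knockout 1 also had the highest summed level of the 12 visceral endoderm markers, 1169 CPM, where knockouts 2 and 3 had 47.3 and 39.7 CPM and the controls 29.6 to 542 CPM. Its part in the *Stra8* counts was not tested.

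**Figure D4:**
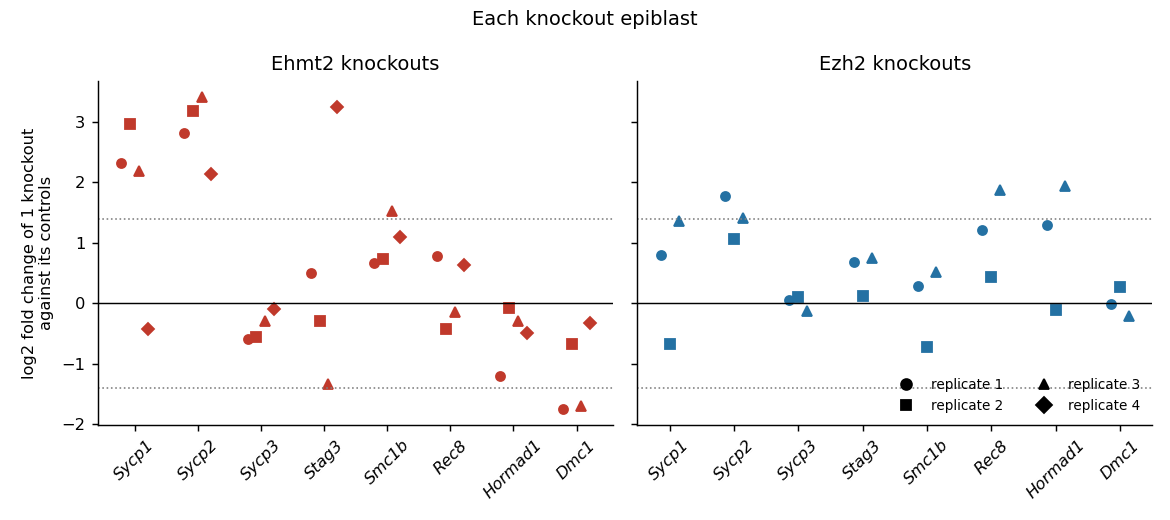
Log2 fold change of each knockout epiblast against the controls of its set, for the 8 genes tested, with a symbol for each replicate number and dotted lines at 1.4. All 4 *Ehmt2* knockouts are above 2.1 for *Sycp2*, whereas *Stag3* runs from −1.34 to 3.24.

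Similarity between the genes was described for the 8 tested. Across the 14 epiblasts, after centring within cross and set, Pearson's r between pairs of the 8 genes ran from −0.72 (*Smc1b* and *Dmc1*) to 0.69 (*Sycp1* and *Sycp2*), with a median of 0.07 over 28 pairs. *Sycp1*, *Sycp2* and *Smc1b* had r between 0.63 and 0.69 with each other, and each had a negative r with *Dmc1*. These are descriptions over shared libraries that include the knockout effect, with no test. By the same measure, the genes with a profile most like that of *Sycp2* among 13348 were *Arhgef12*, *Acpp* and *Arl14epl*, with r of 0.93 each. Of the other genes, the closest 3 were *Gm28845*, *Ppm1d* and *D630023F18Rik* for *Sycp1* (0.88 to 0.92), *Zfp354c*, *Ammecr1* and *BC024139* for *Sycp3* (0.88 each) and *Trip6*, *Fto* and *4930594M22Rik* for *Hormad1* (0.85 to 0.90). They were *Phka1*, *Hopx* and *Dyrk3* for *Smc1b* (0.81 to 0.94), *Foxk1*, *Csrnp2* and *Rcc1l* for *Stag3* (0.90 to 0.91) and *Gjc1*, *Tomm22* and *Phf5a* for *Dmc1* (0.87 to 0.90).

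Other genes of meiotic prophase gave a single further call. Of 21 genes of meiotic recombination, 15 were tested in each cross. Of these, *Rec114*, whose product is needed for the formation of double-strand breaks, was called higher in the *Ehmt2* knockouts, as 0.786% of all genes were. *Rec114* had 1.93, 0.887, 1.26 and 0.648 CPM in controls and 4.80, 6.34, 5.94 and 4.06 CPM in knockouts. Every knockout was above every control, as for 3.59% of all genes. Its log2 fold change was 2.21 with a standard error of 0.33 and an adjusted p of 0.0114 (edgeR). The knockouts of the *Ezh2* cross were below their controls, as for 6.47% of all genes, at 1.41, 1.63 and 1.77 against 2.29, 2.00 and 2.57 CPM. The log2 fold change there was −0.51 (adjusted p = 0.83, edgeR). The difference between the crosses, 2.72 with a standard error of 0.45, had an adjusted p of 0.0367, so that it was called, as few other genes were. Leaving out any one epiblast other than *Ehmt2* control 1 ended that call, with adjusted p-values of 0.0514 to 0.152. In the *Ehmt2* cross the call ended without control 3 (adjusted p = 0.0635), with the replicate block (0.0550), with the marker covariate (0.0655) and without the set term (0.0829). The lowest value of this list there was that of *Prdm9*, the methyltransferase that places breaks (−0.73, adjusted p = 0.60). In the *Ezh2* cross edgeR called 0 of the 15, and 4 were higher at an unadjusted p under 0.05 (5.5% of all genes). DESeq2 called 2 higher, *Tex11* and *Tex15*, where it called 0.485% of all genes higher. *Tex11*, an X-linked gene of crossover formation, had the largest value there (2.72, adjusted p = 0.32, edgeR).

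Of 8 other genes of the synaptonemal complex and axis, 5 were tested in the *Ehmt2* and 6 in the *Ezh2* cross, and edgeR and DESeq2 called 0 in either. At an unadjusted p under 0.05, 1 was higher and 1 lower in the *Ehmt2* cross (8.58% and 6.86% of all genes). In the *Ezh2* cross 1 was lower (3.39%). The largest value was that of *Hormad2* (1.52, adjusted p = 0.22) and the lowest that of *Syce2*, a central element protein (−0.62, standard error 0.12, adjusted p = 0.0409), which did not reach 1.4. *Syce2* had 49.4 to 58.5 CPM in *Ehmt2* controls and 32.0 to 39.6 CPM in knockouts. In the *Ezh2* cross it had 72.5 to 79.5 CPM in controls and 44.6 to 59.1 CPM in knockouts, with a log2 fold change of −0.53 (adjusted p = 0.43, edgeR). Knockouts thus lay below all controls in both crosses, as 2.63% of all genes did in the *Ehmt2* and 6.47% in the *Ezh2* cross taken singly. The share that did so in both was not computed. In that cross the largest value was that of *Syce1* (0.60).

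Among 13 regulators of meiotic entry and prophase, edgeR called 0 of 10 in the *Ehmt2* and 0 of 11 in the *Ezh2* cross. In each, 1 was higher at an unadjusted p under 0.05 (8.58% and 5.5% of all genes). DESeq2 called 0 and 1, the latter *Mael*, where it called 1.66% and 0.485% of all genes higher. *Cyp26a1*, which degrades retinoic acid, had both the largest value in the *Ehmt2* cross (2.22, adjusted p = 0.30) and the lowest in the *Ezh2* cross (−0.55). *Rarg* was lowest in the *Ehmt2* cross (−0.49), and *Mael*, a piRNA pathway gene, was highest in the *Ezh2* cross (1.54, adjusted p = 0.19).

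The 17 general cohesin genes were all tested in both crosses and stayed within a narrow range. With edgeR and with DESeq2, 0 were called in either cross. At an unadjusted p under 0.05, 0 passed in the *Ehmt2* cross (8.58% of all genes higher, 6.86% lower). In the *Ezh2* cross 1 was lower (3.39%). Their log2 fold changes ran from −0.35 (*Hdac8*) to 0.25 (*Pds5b*) in the *Ehmt2* cross and from −0.32 (*Stag2*) to 0.28 (*Sgo2a*) in the *Ezh2* cross, with medians of 0.05 and −0.03. Of the 13 genes of E2F6 and PRC1.6, edgeR and DESeq2 also called 0 in either cross. There 2 were higher and 2 lower at an unadjusted p under 0.05 in the *Ehmt2* cross, against 8.58% and 6.86% of all genes. In the *Ezh2* cross 1 was higher and 1 lower, against 5.5% and 3.39%. Values ran from −0.64 (*Ring1*) to 0.71 (*Yaf2*) in the *Ehmt2* cross and from −0.34 (*Cbx1*) to 0.80 (*Ring1*) in the *Ezh2* cross. *E2f6* itself was at −0.18 and 0.19.

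The *Ehmt2* knockouts also differed from their controls in markers of other cells. Of 12 extraembryonic ectoderm markers, 5 were called higher by edgeR (*Elf5*, *Tfap2c*, *Esrrb*, *Bmp4* and *Sox21*) and 6 by DESeq2. Of all genes, 0.786% and 1.66% were. The summed level of the 12 was 462, 164, 202 and 89.3 CPM in knockouts 1 to 4 and 88.9 to 188 CPM in controls. *Eomes* and *Spry4*, which were not raised (log2 fold change −0.13 and −0.20), weigh heavily in this sum. The mean log2(CPM + 0.5) of the 12, used as the covariate, was 4.84, 3.32, 3.56 and 1.41 in knockouts 1 to 4. In controls it was 1.08 to 1.96. In knockout 4, 5 of the 12 were at 0, among them *Elf5* and *Cdx2*, and in control 4, 3 were. Other markers of knockout 4 were above every control: *Bmp4* (4.22 CPM, controls up to 2.49), *Esrrb* (1.08, up to 0.55), *Ets2* (17.8, up to 13.6) and *Furin* (7.66, up to 6.80). Its mean level was also above that of control 4 (1.08). *Sycp2* was at 3.25 CPM in knockout 4 against 0.738 CPM in control 4. Knockout 1, with the highest marker level, had the lowest *Sycp2* of the knockouts, 2.57 CPM. With the mean marker level as a covariate, the *Sycp2* estimate was 2.65 and its adjusted p 0.15 (edgeR), so that 0 of the 8 genes were called. In replicates 1 to 3 every knockout was above every control in marker level, so this fit cannot tell that level from genotype there. In the *Ezh2* cross the summed marker level was 127 to 169 CPM in controls and 147 to 213 CPM in knockouts, and edgeR called 0 of the 10 markers tested, with 5 higher at an unadjusted p under 0.05 and 1 called higher by DESeq2.

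**Figure D5:**
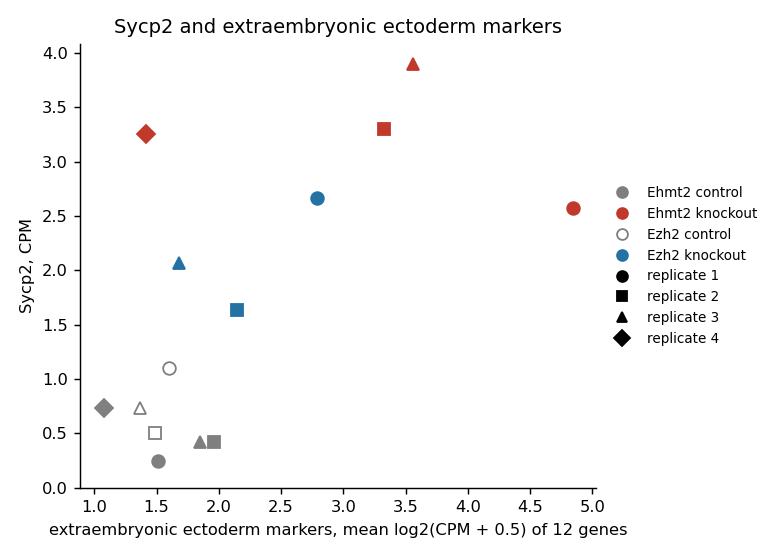
*Sycp2* in CPM against the mean log2(CPM + 0.5) of 12 extraembryonic ectoderm markers, 1 point per epiblast, coloured by group with a symbol for the replicate number. *Ehmt2* knockout 4 (red diamond) has a marker level within the range of the controls, above that of control 4, and *Sycp2* at 3.25 CPM.

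Primordial germ cells, which express many of these genes later in development, were also considered. The summed level of 10 markers was 26.8 to 36.5 CPM in *Ehmt2* controls and 43.5 to 58.7 CPM in knockouts, and 34.5 to 40.8 and 47.5 to 59.5 CPM in the *Ezh2* cross. The groups did not overlap in either cross. Of single genes, 3.59% in the *Ehmt2* and 7.71% in the *Ezh2* cross had every knockout above every control. No such share was computed for sums. Without *Tfap2c*, an alternative chosen after the data were seen, *Ehmt2* controls had 26.7 to 35.9 CPM and knockouts 33.3, 39.9, 35.6 and 56.5 CPM, which overlapped, whereas the *Ezh2* groups (34.3 to 40.5 and 45.4 to 55.9 CPM) did not. *Prdm14*, a defining marker, was at 0 in all 4 groups except *Ehmt2* control 2 and knockout 2, where it was at 0.0422 and 0.0284 CPM, and *Nanos3* was at 0.183 CPM or less. In the *Ehmt2* cross edgeR called 1 of 8 tested higher, *Tfap2c*, which is also among the extraembryonic ectoderm markers (0.786% of all genes). DESeq2 called *Ddx4*, *Kit* and *Tfap2c*, 2 higher and 1 lower, against 1.66% and 0.458% of all genes. *Ddx4*, a germ cell RNA helicase, ranged from 2.12 to 5.72 CPM in controls, was at 7.65 to 10.1 CPM in the first 3 knockouts and reached 26.8 CPM in knockout 4 (log2 fold change 1.44, adjusted p = 0.11). Of the 12 visceral endoderm markers, edgeR and DESeq2 called 0 in either cross, and 0 passed an unadjusted p under 0.05. The part of these cell types in the *Sycp2* result was not tested. The covariate covered extraembryonic ectoderm alone. It went with genotype in replicates 1 to 3 of the *Ehmt2* cross and in the *Ezh2* cross.

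Promoters were read from RefSeq (GRCm38.p6), which held an entry for all 9 genes, as the 250 bases before the RefSeq start on the strand of the gene. That start can differ from the start of the counted transcript. The *Stra8* window (34920698 to 34920947) lies within that transcript's span and not upstream of it. Windows of *Rec8* (55617916 to 55618165), *Sycp2* (178407659 to 178407908) and *Smc1b* (85131958 to 85132207) reach past the start of their transcripts. They are printed for the 4 genes with an unadjusted p under 0.05 in the *Ehmt2* cross, to set the promoter of the called gene beside the others. Capitals mark the E2F core TCCCGC or its complement GCGGGA and the E-box CACGTG. The intervals are chr2:178407659-178407908, chr3:102936101-102936350, chr15:85131958-85132207 and chr15:79605110-79605359, in the order printed, all on the minus strand.
Sycp2: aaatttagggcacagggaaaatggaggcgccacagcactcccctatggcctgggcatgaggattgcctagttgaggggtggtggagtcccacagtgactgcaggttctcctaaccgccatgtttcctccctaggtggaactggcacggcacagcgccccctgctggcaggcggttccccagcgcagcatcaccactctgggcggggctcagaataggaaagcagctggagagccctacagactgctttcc
Sycp1: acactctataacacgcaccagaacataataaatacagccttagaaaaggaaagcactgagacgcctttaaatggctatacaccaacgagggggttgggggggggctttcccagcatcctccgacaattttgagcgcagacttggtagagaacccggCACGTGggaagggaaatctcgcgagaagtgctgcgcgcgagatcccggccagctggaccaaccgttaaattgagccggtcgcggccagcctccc
Smc1b: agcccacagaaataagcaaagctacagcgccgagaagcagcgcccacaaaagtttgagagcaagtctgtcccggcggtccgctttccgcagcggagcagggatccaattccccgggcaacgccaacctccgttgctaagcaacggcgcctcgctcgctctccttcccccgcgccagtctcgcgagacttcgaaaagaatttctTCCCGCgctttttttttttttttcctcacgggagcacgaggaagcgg
Dmc1: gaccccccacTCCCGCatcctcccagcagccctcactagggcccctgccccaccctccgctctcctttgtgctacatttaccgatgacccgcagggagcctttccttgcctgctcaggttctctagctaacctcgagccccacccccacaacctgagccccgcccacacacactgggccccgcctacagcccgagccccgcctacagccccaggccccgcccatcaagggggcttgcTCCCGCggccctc

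The *Sycp2* promoter held neither motif, that of *Sycp1* 1 E-box, that of *Smc1b* 1 E2F core and that of *Dmc1* 2 E2F cores. Among the 9 genes 5 had the E2F core (*Sycp3*, *Smc1b*, *Rec8*, *Hormad1*, *Dmc1*) and 4 the E-box (*Sycp1*, *Sycp3*, *Stag3*, *Hormad1*), whereas *Sycp2* and *Stra8* had neither in this window. Both strands were searched, and the motifs do not overlap each other in these sequences. Of 27018 promoters of the same length, 16.9% held the E2F core and 6.05% the E-box. *Sycp2* had 7 CpG dinucleotides in the window and *Stra8* had 5, near the median of 6 over all promoters, and the other genes had between 10 (*Rec8*) and 26 (*Stag3*). A match is a description of the letters only.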

How the data were processed

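RNA-seq libraries of 14 single E6.25 epiblasts were used. The other 45 samples of the series (chromatin and methylation) were not analysed here. The authors amplified 750 pg of RNA per epiblast, trimmed reads to 40 nt, aligned them with TopHat2 to GRCm38 and deposited raw counts per Ensembl release 74 transcript from HTSeq-count. Strand use and the treatment of reads with several alignments are not given in the sources used here. A row of unaligned reads in both replicates 4 of the *Ehmt2* cross (12.6% and 13.3% of their totals) was left out. A read in several isoforms was counted for each. Replicates differed by 17.7 to 206 in chi-square per degree of freedom, highest for pairs with replicate 4, and none was a duplicate.

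Transcripts were matched to genes with GENCODE vM21 (70021 of 72515). Each cross was filtered, TMM-scaled and fitted separately on all transcripts with edgeR 4.0.16 in R 4.3.3, with the comparison set as a term in the *Ehmt2* cross. CPM was computed from the deposited counts and the TMM-scaled totals, and log2 values use a pseudocount of 0.5 where stated. The rule for a call is given with the results. The per-embryo rule, modelled on that of the study but against the controls of the set, needed a change beyond 1.4 (log2) in every knockout, a combined unadjusted p under 0.05 and at least 5 normalised counts in each epiblast of the higher group. Alternatives were DESeq2 1.42.0, no filter, 1 transcript per gene, a replicate block, a marker covariate, other call rules and left-out epiblasts. The sources do not say which epiblasts shared a litter, so p-values measure the spread between epiblasts. Tested on simulated data, edgeR called 96% (raised) and 90% (lowered) of genes with a change of 3 in log2 units among 13749 genes of the *Ehmt2* cross, and 62% and 66% at a change of 2. For 14010 genes of the *Ezh2* cross the shares were 92% and 56%, and 64% and 46%. These simulations held 1 transcript per gene, whereas the reported fits adjusted over 49872 (*Ehmt2*) and 50855 (*Ezh2*) transcripts. The shares are therefore not the sensitivity of the reported fits.

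The 9 genes and the gene lists were chosen with earlier results of these data known. From each other list, called genes and those with the largest and smallest log2 fold change were named. *Tex15*, *Kit* and the genes beside an isoform were named after their values were seen, as was the alternative that removes short isoform counts. The genes most like *Rec8* are not reported here. Intervals and floors cover counting error only.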

Additional observations from a re-analysis of the deposited data

Results flagged for a closer look

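Among 18 groups of 4 epiblasts tested for a value far from the rest, 2 had one, and chance flags about 1 in 20 groups. *Hormad1* in *Ehmt2* control 1 was at 1.17 CPM, apart from the other 3 controls, by 0.85 of the range of the group. *Stra8* in *Ehmt2* knockout 1 was at 0.0279 CPM, which is 1 count where the other 3 knockouts had 0. The knockout effect on *Rec114* differed between the crosses by 2.72 on the log2 scale (adjusted p = 0.0367, edgeR), a call that was lost when any epiblast but *Ehmt2* control 1 was left out.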

How the results depend on the processing

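*Sycp2* in the *Ehmt2* cross stayed between 2.65 and 3.16 on the log2 scale in every alternative, and its call was lost in 1, with extraembryonic ectoderm marker level as a covariate (0 genes called, adjusted p = 0.15, edgeR). Leaving out 1 epiblast gave 2.69 to 3.16 with adjusted p-values of 0.00465 to 0.0447, and always 1 gene called higher. In the *Ezh2* cross *Sycp2* ran from 1.11 to 1.77 without a call. With that covariate *Rec8* (−0.21) and *Hormad1* (0.25) in the *Ehmt2* cross and *Sycp3* (−0.081) and *Dmc1* (−0.15) in the *Ezh2* cross turned direction. Without the short isoform counts *Stag3* (−0.32) and *Rec8* (−1.06) turned in the *Ehmt2* cross, as did the difference between crosses of *Stag3* (−0.77). *Stag3* was −0.19 with both replicates 4 left out, and *Sycp3* in the *Ezh2* cross was −0.0091 with 1 transcript per gene. None of these values was called, and the cause was not tested.

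Leaving out 1 epiblast, the range was −0.20 to 1.00 for *Stag3* and −0.012 to 0.54 for *Rec8* in the *Ehmt2* cross. In the *Ezh2* cross it was −0.067 to 0.068 for *Sycp3*, −0.27 to 0.51 for *Dmc1* and −0.22 to 0.52 for *Smc1b*. For the difference it was −0.73 to 0.47 for *Stag3* and −0.20 to 0.0037 for *Syce2*. The *Rec114* call in the *Ehmt2* cross was also lost with the covariate (adjusted p = 0.0655) and without the set term (0.0829).

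With the replicate block *Sycp2* was 2.90 (adjusted p = 0.0355, edgeR), and among the 8 genes, *Syce2* and *Rec114*, the call of *Rec114* was lost (0.0550). Same-number epiblasts had correlations of 0.06, 0.12, 0.20 and 0.42 in the *Ehmt2* cross and 0.03, −0.18 and 0.23 in the *Ezh2* cross, and not every epiblast correlated best with its own number. The numbers were therefore not used to pair epiblasts, and whether a number marks a litter is not given. Genes at 1 CPM or less rest on few counts, which limits what could be detected.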
